A study of Mus musculus with 8 samples.

Results

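The mRNAs described here encode the subunits of the 5 complexes of oxidative phosphorylation. They were taken from a table of FPKM (fragments per kilobase of exon, relative to a library size that had been scaled between the livers) that lists 54532 genes, as the protein-coding rows whose symbols follow the naming of these subunits (Nduf, Sdh, Uqcr, Cox4 to Cox8, Atp5, and mt-Nd, mt-Co, mt-Cytb and mt-Atp), without the Ndufaf assembly factors. This left 99 of the 54532 rows, of which 86 lie in the nuclear genome and 13 in the mitochondrial genome. A few members are named like subunits without being constant parts of a complex, such as Atp5s, a coupling factor, and Cox7a2l, a factor that holds complexes III and IV together. Ndufa4 and Ndufa4l2 were counted with complex IV, in which the Ndufa4 protein sits. The liver mRNA came from 8 mice, 4 METTL3-HKD and 4 METTL3-Flox, in which ischemia had lasted 1 h and reperfusion 6 h, with no liver free of ischemia in the data. METTL3-HKD mice carried METTL3 flox/- and Alb-iCre, with Cre driven by the albumin promoter and loxP sites around exon 4, and METTL3-Flox mice were METTL3 flox/flox littermates without Cre. METTL3-HKD is a heterozygous knockdown in the liver and not a full knockout. The loxP sites were shared by both groups, and the labels give no age for the mice. The study describes the knockdown as specific to hepatocytes, and the state of the allele in other liver cells is not given in the labels.

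Oxidative phosphorylation passes electrons from NADH through complex I and from succinate through complex II to coenzyme Q, then through complex III and cytochrome c to complex IV, which reduces oxygen. Complexes I, III and IV pump protons across the inner mitochondrial membrane, and complex V, the ATP synthase, lets them flow back to make ATP. The mitochondrial genome encodes a small set of membrane subunits in complexes I, III, IV and V, whereas complex II and all other subunits come from nuclear genes, so that both genomes must supply mRNA. In liver, succinate that builds up during ischemia is burned by complex II on reperfusion, and electrons driven backwards into complex I are a known source of superoxide.

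For the targeted gene, Mettl3, METTL3-HKD livers 1 to 4 gave 1.56, 1.39, 1.17 and 1.198 FPKM, and METTL3-Flox livers 1 to 4 gave 1.84, 1.16, 1.45 and 1.54 FPKM. The groups overlapped (exact permutation test, two-sided, p = 0.371), so this value, which covers all exons and not exon 4 alone, did not check the labels. Hepatocyte markers were plainly present in all livers, with a summed level of 23667 to 34983 FPKM over 10 genes in METTL3-HKD livers and 30784 to 35580 FPKM in METTL3-Flox livers. Of those 10 genes, 1 was lower (Hnf4a) and 0 were higher in METTL3-HKD livers at an adjusted p under 0.05, with a median log2 fold change of -0.37. The summed level of 8 neutrophil markers was 329.6 to 1615 FPKM against 12.9 to 44.5 FPKM, and 7 of the 8 were higher. Kupffer cell markers were lower for 4 of 6 genes, and biliary markers were higher for 5 of 6. Red cell markers were higher for 4 of 5 genes, with sums of 185 to 597 FPKM in METTL3-HKD livers and 48.2 to 107 FPKM in METTL3-Flox livers. The remaining red cell marker went the other way, with a log2 fold change of -0.98 that did not pass at the adjusted p. The 8 skeletal muscle markers summed to 85.4 FPKM in METTL3-HKD liver 1 and 146 FPKM in METTL3-HKD liver 3, against 0.525 to 1.06 FPKM in the other 6 livers. In whole liver, fewer cells of a type and less RNA per cell cannot be told apart.

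Nuclear subunit mRNAs lay slightly lower in METTL3-HKD livers in the deposited scaling, and few of them passed the test. Of the 86 nuclear rows, 83 had a mean of at least 0.1 FPKM and were tested with limma on log2(FPKM + 0.1). At a Benjamini-Hochberg adjusted p under 0.05, 3 were lower in METTL3-HKD livers (Ndufv3, Ndufs6 and Ndufa1) and 0 were higher, against 6.63% of all 16645 genes tested that were lower and 9.05% that were higher. Of the 13 mitochondrial mRNAs, 1 was lower (mt-Nd3) and 0 were higher. No member reached a log2 fold change of 1 with an adjusted p under 0.05, as 1.52% of all genes did downwards and 4.7% upwards. At an unadjusted p under 0.05, 22 nuclear members were lower and 3 were higher (Cox6a2, Cox7a1 and Cox8b), with a background of 15.1% lower and 16.7% higher. Cox6a2 and Cox8b reached the minimum level through METTL3-HKD livers alone, so their test is not read. The count of nuclear members called lower was 1 without METTL3-HKD liver 1, 2 or 3 or METTL3-Flox liver 1, 3 or 4, was 2 without METTL3-Flox liver 2 and was 4 without METTL3-HKD liver 4. Ndufv3 passed in 7 of these 8 omissions, all but that of METTL3-HKD liver 2 (adjusted p = 0.05003 from limma), whereas Ndufs6 passed in that of METTL3-Flox liver 2 and Ndufa1 in that of METTL3-HKD liver 4 alone. mt-Nd3 passed in all 8.

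Most nuclear members lay below 0 by a small amount in the deposited scaling, and most did not after scaling to reads on all genes. The median log2 fold change, METTL3-HKD minus METTL3-Flox, was -0.19 over the 83 nuclear members and -0.00 over all genes tested, and 76 of the 83 lay below 0, against 50.3% of all genes. In 19 of the 83, every METTL3-HKD liver lay below every METTL3-Flox liver, against 9.95% of all genes, and in 0 of them every METTL3-HKD liver lay above, against 12.7%. Highly expressed nuclear genes as a class also leaned lower. Among 3135 protein-coding genes outside the list with a mean of at least 10 FPKM, the median was -0.11, 61.5% lay below 0 and 20.5% had all METTL3-HKD livers lowest, whereas among the 73 nuclear members at that level these values were -0.19, 97.3% and 26.03%. After scaling to reads on all genes, 28 of the 83 lay below 0, against 32.6% of all genes, and in 1 of them (Ndufv3) every METTL3-HKD liver lay below every METTL3-Flox liver, against 3.54% of all genes. In 3 (Ndufab1, Ndufb3 and Atp5g3) every METTL3-HKD liver lay above there, against 19.8% of all genes. The sign of the members' median also rested on the scaling: it was 0.03 after scaling to reads on all genes, where the median of all genes moved from -0.00 to 0.19, so that the members lay 0.16 below all genes there and 0.18 below them in the deposited scaling. In the deposited scaling 57.7% of all calls were higher in METTL3-HKD livers, and 86.0% were higher after scaling to reads on all genes. Nuclear members held 0.927% to 1.01% of the reads in METTL3-HKD livers and 0.901% to 0.979% in METTL3-Flox livers, and these shares overlapped. The summed hepatocyte markers were at 23667 and 25627 FPKM in METTL3-HKD livers 1 and 2 and within the METTL3-Flox range in livers 3 and 4, and neutrophil markers were higher in METTL3-HKD livers. The part of these cells in the members' values was not tested.

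**Figure D1:**
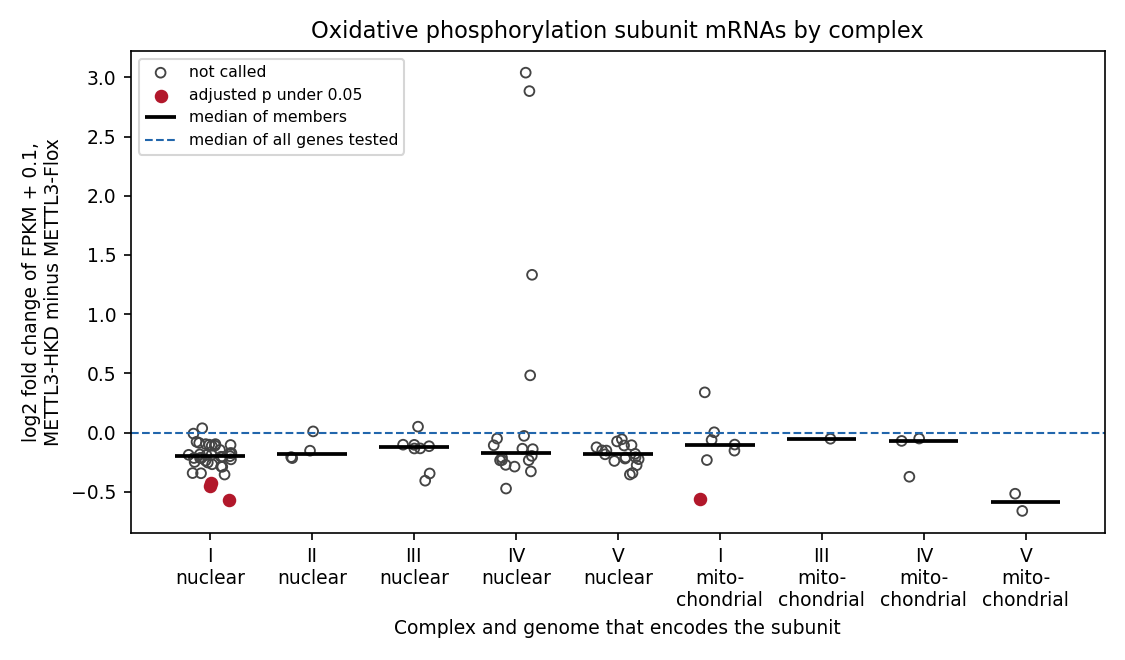
Log2 fold change of FPKM + 0.1 (METTL3-HKD minus METTL3-Flox, 4 livers each) of the 96 members tested, 1 circle per mRNA, by complex and by the genome that encodes it. Bars are medians, red marks the 4 members with an adjusted p under 0.05, all of them in complex I, and the dashed line is the median of all 16645 genes. Most nuclear members sit just below the line, and the 3 highest circles in nuclear complex IV are Cox8b, Cox6a2 and Cox7a1.

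Complex I, the entry point for electrons from NADH, had all 3 nuclear calls and 36 of the 83 nuclear members tested. These were 3 of its 36, against 6.63% of all genes called lower. Cox7a2l, counted with complex IV, passed with a minimum of 1 FPKM, with weights, with protein-coding genes only and without METTL3-HKD liver 2. Atp5k of complex V passed without METTL3-HKD liver 4. Of the 36 nuclear members of complex I, 35 lay below 0 (13 after scaling to reads on all genes). Their median log2 fold change was -0.20, with a lowest value of -0.57 and a highest of 0.04. The lowest, Ndufv3 (ENSMUSG00000024038, chromosome 17, 31520115 to 31531326, plus strand, GRCm38), is an accessory subunit of the part of complex I that oxidizes NADH. METTL3-HKD livers 1 to 4 gave 10.7, 12.1, 12.7 and 15.0 FPKM, and METTL3-Flox livers 1 to 4 gave 21.3, 19.1, 17.8 and 16.7 FPKM. All METTL3-HKD livers were below all METTL3-Flox livers, with means of 12.6 ± 1.77 FPKM (SD, n = 4) and 18.7 ± 1.99 FPKM (SD, n = 4). This was a log2 change of -0.57 with a standard error of 0.122 (adjusted p = 0.0182 from limma, and p = 0.0286 in the exact permutation test, which is the smallest p that 4 against 4 livers allow).

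Ndufs6 (ENSMUSG00000021606, chromosome 13, 73319838 to 73328542, minus strand) encodes a zinc-binding accessory subunit needed late in the assembly of the NADH-oxidizing part. It measured 45.7, 51.8, 54.4 and 55.9 FPKM in METTL3-HKD livers and 80.9, 59.6, 69.9 and 69.2 FPKM in METTL3-Flox livers, again without overlap. The log2 fold change was -0.42 (standard error 0.113, adjusted p = 0.0375 from limma). Of its exon bases, 3.34% are shared with Mrpl36 on the opposite strand, and the strand setting of the counting is not given in the sources used here. Ndufa1 (ENSMUSG00000016427, chromosome X, 37187588 to 37191163, minus strand), a small membrane subunit needed early in assembly, measured 80.7, 89.0, 85.8 and 104 FPKM against 150.5, 110.04, 125 and 109 FPKM. The groups did not overlap, although METTL3-HKD liver 4 and METTL3-Flox liver 4 lay close, and the log2 fold change was -0.45 (standard error 0.132, adjusted p = 0.0483 from limma). After scaling to reads on all genes, Ndufv3 stayed lower (-0.36, adjusted p = 0.0358 from limma), whereas Ndufs6 (-0.21, adjusted p = 0.180) and Ndufa1 (-0.24, adjusted p = 0.1501) did not pass the test. Without METTL3-HKD livers 1 and 3, which were left out after the muscle markers had been seen, none of the 3 passed, and Ndufv3 was at -0.46 (adjusted p = 0.114 from limma).

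The sequence just upstream of the RefSeq start of these 3 genes is shown because they are the nuclear members that passed the test. It was read from RefSeq on GRCm38.p6 and is written 5′ to 3′ on the strand of the gene. Capitals mark a CCAAT box read on the other strand (ATTGG) in Ndufv3 and the NRF1 motif in Ndufs6. The 300-base window of Ndufs6 also held the YY1 motif and CCAAT, not within the bases shown. Ndufa1 held none of the 4 motifs searched in its 300-base window. Its RefSeq start lies upstream of the gene boundary given above (37191163), and the bases shown stop at 37191239, so those next to that boundary are not shown. Ndufs6 is cut to 30 bases since the RefSeq start lies within an exon of the GENCODE annotation.
Ndufv3, chr17:31519965-31520114, plus strand: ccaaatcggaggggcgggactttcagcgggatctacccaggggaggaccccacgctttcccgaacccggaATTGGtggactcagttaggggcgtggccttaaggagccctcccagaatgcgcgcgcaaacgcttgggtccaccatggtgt
Ndufs6, chr13:73328483-73328512, minus strand: ccgccgactgctgtGCGCCTGCGCcggcac
Ndufa1, chrX:37191239-37191388, minus strand: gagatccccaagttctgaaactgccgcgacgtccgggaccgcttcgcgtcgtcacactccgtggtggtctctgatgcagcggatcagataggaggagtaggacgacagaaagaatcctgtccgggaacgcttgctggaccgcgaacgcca

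Promoter windows from 250 bases before to 50 bases after the start were found for 69 of the 85 nuclear symbols, all of which matched a RefSeq gene. Each motif was searched on both strands. A gene was counted for a motif if any of its windows held it. The motif of NRF1 (GCGCA, any base, then GCGC), which regulates nuclear genes for mitochondria, was found for 17 of the 69 genes (24.6%). Over all 27025 genes with a window this was 5.19%. CCGGAAG, an ETS motif of the kind read by NRF2 (the Gabpa and Gabpb1 proteins), was found for 16 genes (23.2%, against 9.93% of all). AAGATGG, the YY1 motif, was found for 11 (15.9%, against 7.28%). CCAAT was about as common in members as in all genes (43.5% and 41.1%). The median log2 fold change of the members with a motif was -0.22 for NRF1, -0.18 for ETS, -0.21 for YY1 and -0.18 for CCAAT, each close to the -0.19 of all nuclear members.

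**Figure D2:**
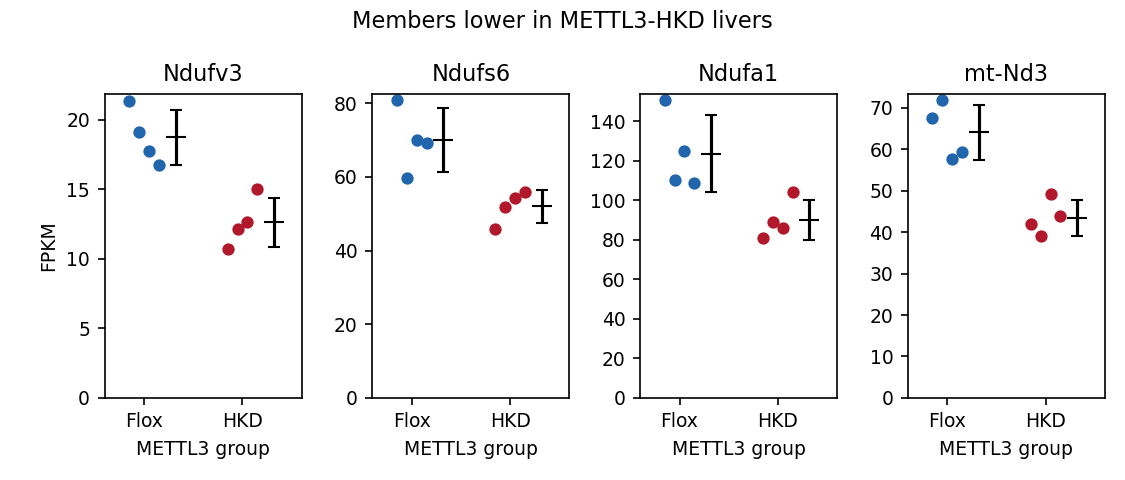
FPKM of Ndufv3, Ndufs6, Ndufa1 and mt-Nd3 in each liver, with the mean and SD of each group of 4 beside the points, on axes that start at 0. In all 4 mRNAs every METTL3-HKD liver lies below every METTL3-Flox liver, and in Ndufa1 the highest METTL3-HKD liver (104 FPKM) and the lowest METTL3-Flox liver (109 FPKM) lie close.

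The nuclear core of complex I, which holds the flavin and the iron-sulfur clusters, gave no call. Of its 7 subunits, 0 passed the test, and their median was -0.15, beside -0.20 in the 29 accessory members with 3 calls. Ndufs7, which carries the last iron-sulfur cluster before coenzyme Q, was nearest, at 34.2, 37.6, 35.1 and 29.5 FPKM in METTL3-HKD livers against 49.6, 41.2, 39.7 and 42.5 FPKM, without overlap (log2 fold change -0.34, adjusted p = 0.0598 from limma). Ndufv1, which binds NADH and the flavin, was at 41.6 ± 3.46 FPKM (SD, n = 4) against 50.8 ± 3.53 FPKM (SD, n = 4), also without overlap (log2 fold change -0.29, adjusted p = 0.0649 from limma). Ndufs1 (-0.15) and Ndufs8 (-0.10) overlapped between the groups. Near-identical copies elsewhere in the genome make the levels of Ndufs3 and Ndufs5 uncertain. Ndufb11, an accessory membrane subunit with the highest mean level of the nuclear members of the complex (144 FPKM), was at 136, 125, 117 and 126 FPKM against 198, 152, 162 and 134 FPKM, and METTL3-HKD liver 1 lay above METTL3-Flox liver 4 (log2 fold change -0.34, adjusted p = 0.101 from limma).

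Complex II feeds electrons from succinate and has nuclear subunits alone. None of its 4 subunits passed the test, with a median log2 fold change of -0.18. Sdha, the flavoprotein that oxidizes succinate, was at 66.1, 68.9, 78.9 and 83.8 FPKM in METTL3-HKD livers and at 81.7, 94.9, 83.6 and 82.5 FPKM in METTL3-Flox livers, and METTL3-HKD liver 4 reached into the other group. Its log2 fold change was -0.21, with a 95% interval from -0.44 to 0.03. Sdhb, the iron-sulfur subunit, was at 62.1 ± 6.45 FPKM (SD, n = 4) and 61.98 ± 9.38 FPKM (SD, n = 4), or 0.01 higher on the log2 scale with an interval from -0.28 to 0.30. The membrane anchors Sdhc and Sdhd were at -0.15 and -0.22, both with overlapping groups.

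Complex III, which passes electrons from coenzyme Q to cytochrome c, had 0 calls among 8 nuclear subunits and a median of -0.12. The subunits that lay furthest below were small ones around the core. Uqcrq measured 100, 125, 115 and 125 FPKM in METTL3-HKD livers and 193, 142, 144 and 141 FPKM in METTL3-Flox livers, with METTL3-Flox liver 1 far above the rest (log2 fold change -0.41, adjusted p = 0.0688 from limma). Uqcr11 was at 122 ± 5.21 FPKM (SD, n = 4) against 156 ± 21.5 FPKM (SD, n = 4), without overlap (-0.35, adjusted p = 0.0653 from limma). The Rieske iron-sulfur protein Uqcrfs1 (-0.10) and the core proteins Uqcrc1 (-0.10) and Uqcrc2 (-0.12) overlapped between the groups, as did Uqcr10 (-0.13), the subunit with the highest mean level of the complex (151 FPKM). A near-identical copy with a mean of 7.73 FPKM makes the level of Uqcrb uncertain.

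Complex IV, cytochrome c oxidase, had 18 tested nuclear members of 20, and 0 were called. Cox7a2l came closest, at 68.1, 80.2, 69.8 and 73.1 FPKM in METTL3-HKD livers and 88.3, 93.5, 87.7 and 85.5 FPKM in METTL3-Flox livers, with no overlap (log2 fold change -0.29, standard error 0.0853, adjusted p = 0.0512 from limma). Cox4i1, the largest nuclear subunit, was at 172 ± 9.82 FPKM (SD, n = 4) against 203 ± 22.8 FPKM (SD, n = 4). Cox5b, a zinc-binding subunit, was at 47.9 ± 5.12 FPKM (SD, n = 4) against 56.1 ± 2.47 FPKM (SD, n = 4). In both, the groups did not overlap, while the adjusted p from limma was 0.170 and 0.135. Cox6a1 had the highest mean FPKM of all nuclear members, 382, and lay at 351 ± 19.7 FPKM (SD, n = 4) against 413 ± 34.7 FPKM (SD, n = 4), without overlap (log2 fold change -0.23, adjusted p = 0.176 from limma). Cox5a, by contrast, was at 32.3 ± 2.76 FPKM (SD, n = 4) against 32.98 ± 4.06 FPKM (SD, n = 4), which is -0.03 on the log2 scale with an interval from -0.28 to 0.22. Cox6b1 was at -0.21 without overlap and Cox7b at -0.27 with overlap, and neither passed. Ndufa4 was at -0.33 and its groups overlapped (adjusted p = 0.126 from limma).

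Complex V, the ATP synthase, had all 17 tested members below 0 (6 after scaling to reads on all genes), between -0.35 and -0.06, with a median of -0.18 and 0 calls. The catalytic head subunits Atp5a1 (-0.18) and Atp5b (-0.11) and the rotating stalk subunit Atp5c1 (-0.11) all overlapped between the groups. Atp5b measured 207 ± 15.9 FPKM (SD, n = 4) against 223 ± 12.9 FPKM (SD, n = 4). The smallest adjusted p values belonged to Atp5j2 (-0.28, adjusted p = 0.0698 from limma) and Atp5k (-0.34, adjusted p = 0.0876), which encode small membrane subunits, and to Atp5s (-0.35, adjusted p = 0.101). Atp5j2 was at 31.3, 33.7, 35.1 and 37.4 FPKM in METTL3-HKD livers and 45.6, 42.1, 40.4 and 38.5 FPKM in METTL3-Flox livers, without overlap. A second row named Atp5o was at 0 FPKM in all livers and was not tested. Near-identical copies make the levels of Atp5h and Atp5l uncertain, with copies at means of 38.95 FPKM (Atp5h) and up to 88.45 FPKM (Atp5l).

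In the deposited scaling the livers followed a similar order in each complex. Mean log2 levels relative to the METTL3-Flox mean were taken in the deposited scaling, over the nuclear members with a mean of at least 10 FPKM. For complex I they lay between -0.34 and -0.10 in METTL3-HKD livers and between -0.09 and 0.16 in METTL3-Flox livers. These ranges did not overlap, although METTL3-HKD liver 4 (-0.102) and METTL3-Flox liver 3 (-0.091) lay close. The ranges overlapped in complex II (-0.27 to 0.02 against -0.09 to 0.14), III (-0.27 to -0.05 against -0.16 to 0.17), IV (-0.37 to -0.08 against -0.11 to 0.15) and V (-0.32 to -0.05 against -0.08 to 0.11). Of these 73 members, 56 had their lowest METTL3-HKD value in liver 1 and 52 their highest in liver 4, and 49 had their highest METTL3-Flox value in liver 1. The size factor of the deposited scaling was largest in METTL3-HKD liver 1 (1.18) and smallest in METTL3-Flox liver 1 (0.835). Whether this order holds after scaling to reads on all genes was not tested. METTL3-HKD liver 1 also had the highest neutrophil marker sum (1615 FPKM) and the lowest hepatocyte marker sum (23667 FPKM), whose part in this order was not tested. Without that liver the median of the nuclear members was -0.13, and without METTL3-Flox liver 1 it was -0.12. Transcripts under 1000 bases made up 49 of the 73, and 48 of these lay below 0, beside 67.9% of the 420 other nuclear protein-coding genes of that length and level.

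**Figure D3:**
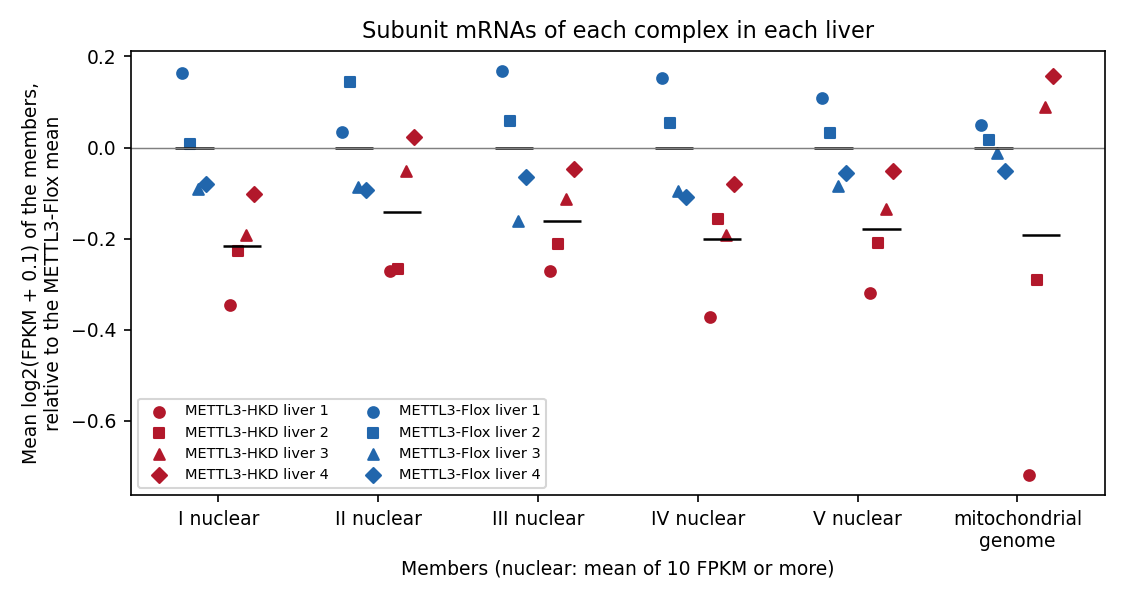
Mean log2(FPKM + 0.1) over the members of each complex in each of the 8 livers, set to 0 at the METTL3-Flox mean. Bars are group means, and nuclear members have a mean of 10 FPKM or more. In the deposited scaling METTL3-HKD liver 1 is lowest in every set. Over the mitochondrial genome the METTL3-HKD livers spread from -0.72 to 0.16, around the METTL3-Flox livers at -0.05 to 0.05.

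Isoforms differ in where they are used, and the liver forms made up nearly all of each subunit. Cox6a2, Cox7a1 and Cox8b, the forms of heart and skeletal muscle, gave the highest fold changes among the members. Cox6a2 measured 4.24, 0.239, 7.49 and 0 FPKM in METTL3-HKD livers and 0, 0.0910, 0.0967 and 0 FPKM in METTL3-Flox livers. Cox8b measured 2.76, 0.301, 11.7 and 0 FPKM against 0.195, 0, 0 and 0 FPKM, and Cox7a1 measured 2.14, 0.708, 7.14 and 2.01 FPKM against 0.526, 1.04, 1.11 and 0.697 FPKM. METTL3-HKD livers 1 and 3 held the highest values of all 3, and these are the livers with high skeletal muscle markers, whose part was not tested. For Cox7a1, however, METTL3-HKD liver 4 (2.01 FPKM) lay close to liver 1 (2.14 FPKM), with a muscle marker sum of 0.525 FPKM. In METTL3-HKD liver 3, Cox6a2 was 2.19% of the summed FPKM of Cox6a1 and Cox6a2, Cox7a1 was 6.06% of Cox7a1 and Cox7a2, and Cox8b was 4.18% of Cox8a and Cox8b. Cox6a2 and Cox8b had at most 1 read in a METTL3-Flox liver and reached the minimum level through METTL3-HKD livers alone, so that no test of them is read here. For Cox7a1 the adjusted p from limma was 0.144, and without METTL3-HKD livers 1 and 3 its log2 fold change was 0.52.

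**Figure D4:**
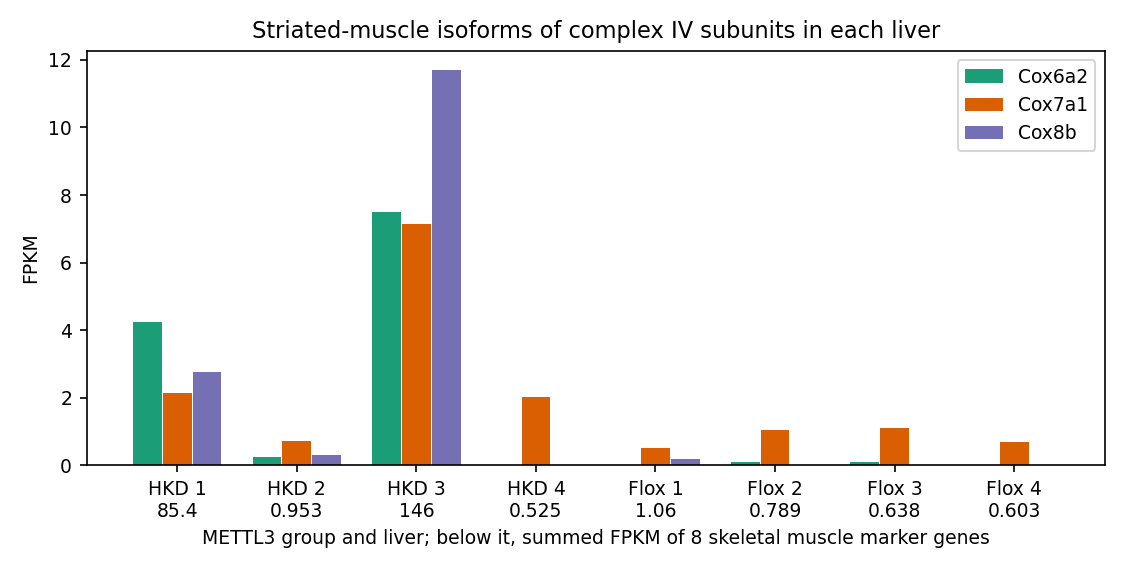
FPKM of Cox6a2, Cox7a1 and Cox8b in each of the 8 livers, with the summed FPKM of 8 skeletal muscle markers written below each liver. METTL3-HKD livers 1 and 3 have both the highest isoform levels and marker sums of 85.4 and 146 FPKM. For Cox7a1, METTL3-HKD liver 4 (2.01 FPKM) lies close to liver 1 (2.14 FPKM).

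The isoforms known to respond to low oxygen did not pass the test. Cox4i2 was at 0.126, 0.137, 0.492 and 0.273 FPKM in METTL3-HKD livers and at 0.268, 0.157, 0.0835 and 0.0788 FPKM in METTL3-Flox livers, at most 0.307% of the summed FPKM of Cox4i1 and Cox4i2. Ndufa4l2 was at 0.590, 0.741, 1.57 and 0.737 FPKM against 0.8997, 1.64, 1.44 and 1.02 FPKM, with overlapping groups (log2 fold change -0.47, adjusted p = 0.308 from limma). Cox6b2, a form of testis, had a mean of 0.144 FPKM against 0.163 FPKM. Cox7b2 and Cox8c were listed at 0 FPKM in all 8 livers and were not tested. Among the genes for the ring subunit c of the ATP synthase, which encode the same mature protein, Atp5g3 made up 60.7% to 67.4% of the summed FPKM in METTL3-HKD livers and 61.1% to 64.7% in METTL3-Flox livers. Atp5g1 lay lower without overlap (22.03 ± 1.65 FPKM against 25.5 ± 2.53 FPKM, SD, n = 4 each), yet did not pass the test (-0.21, adjusted p = 0.174 from limma), and Atp5g2 has 2 identical copies that make its level uncertain.

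The mRNAs of the mitochondrial genome differed mainly among the METTL3-HKD livers. Their median log2 fold change was -0.10, with 11 of 13 below 0, and their mean log2 level relative to METTL3-Flox was -0.72, -0.29, 0.09 and 0.16 in METTL3-HKD livers 1 to 4. In METTL3-Flox livers it stayed between -0.05 and 0.05. Of the 13 mRNAs, 11 had their lowest METTL3-HKD value in liver 1 and 10 had their highest in liver 4. The median was 0.06 without METTL3-HKD liver 1, 0.11 after scaling to reads on all genes, and 0.15 without METTL3-HKD livers 1 and 2, so that its direction turned in each of these. Whether mitochondrial and nuclear members differed in their change was not tested.

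mt-Co1, the catalytic core of complex IV and the most abundant member, measured 7367, 7471, 11243 and 12052 FPKM in METTL3-HKD livers and 11713, 12685, 11806 and 11962 FPKM in METTL3-Flox livers. METTL3-HKD livers 1 and 2 lay far below, while liver 4 lay within the other group (log2 fold change -0.37, adjusted p = 0.405 from limma). mt-Cytb, the core of complex III, was at 4647, 5400, 7371 and 8335 FPKM against 6515, 7301, 5951 and 6293 FPKM, and METTL3-HKD livers 3 and 4 were above all METTL3-Flox livers. The complex I subunits mt-Nd1 (-0.23), mt-Nd2 (-0.10), mt-Nd4 (-0.15), mt-Nd5 (0.00) and mt-Nd6 (-0.06) showed the same split, with METTL3-HKD livers 1 and 2 below livers 3 and 4 in each of the 5. METTL3-HKD livers 1 and 2 also held the most reads from RNA of the mitochondrial ribosome, whose genes are not members and were looked at after their values had been seen. mt-Rnr1 and mt-Rnr2 together took 0.398% and 0.497% of the reads there, 0.128% and 0.158% in METTL3-HKD livers 3 and 4, and 0.0544% to 0.0766% in METTL3-Flox livers. mt-Rnr2 was at 1372, 1733, 565 and 647 FPKM against 345, 217, 240 and 202 FPKM, which passed the test (log2 fold change 1.97, adjusted p = 0.0115 from limma). mt-Rnr1 also passed (log2 fold change 1.55, adjusted p = 0.0414 from limma) but lost its call in 7 of 8 omissions of a liver. The libraries were made with an mRNA-Seq kit, so these reads need not follow the level of the ribosomal RNA. The part of this difference in the mRNA levels was not tested.

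**Figure D5:**
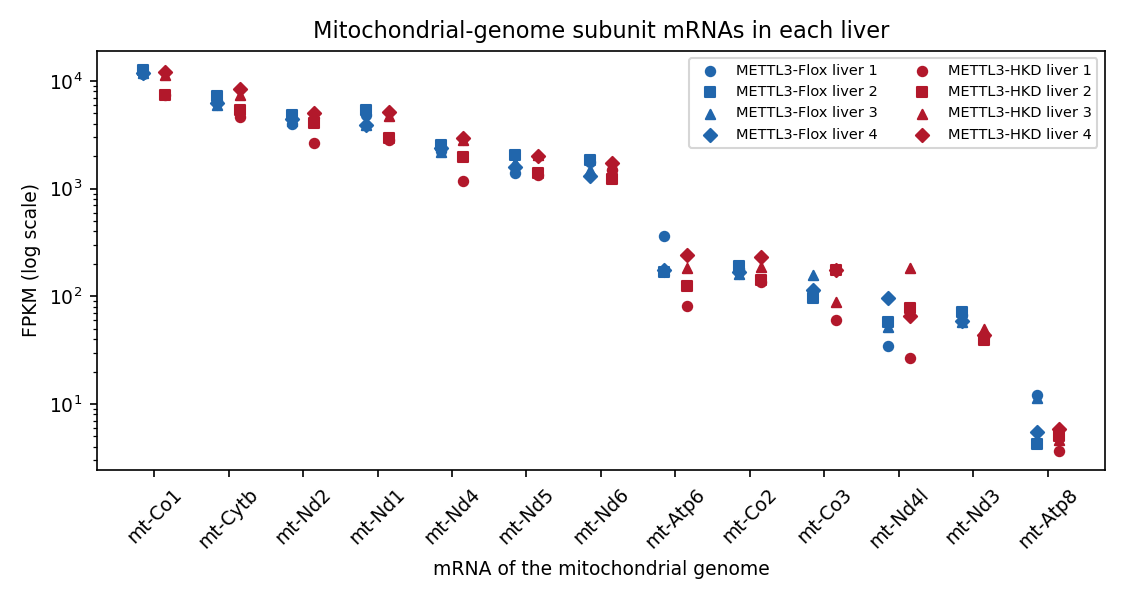
FPKM of the 13 mitochondrial-genome mRNAs in each of the 8 livers on a log axis, ordered by mean level. The 7 mRNAs from mt-Co1 to mt-Nd6 have means of at least 1560 FPKM and the other 6 at most 189 FPKM, and METTL3-HKD livers 1 and 2 tend to lie lowest in the first 7.

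mt-Nd3 (ENSMUSG00000064360, mitochondrial genome, 9459 to 9806, plus strand) encodes a core membrane subunit of complex I with a loop that shifts when the enzyme changes between its active and inactive states. It was at 41.9, 39.0, 49.3 and 43.9 FPKM in METTL3-HKD livers and 67.5, 71.8, 57.7 and 59.4 FPKM in METTL3-Flox livers. The groups did not overlap, and METTL3-HKD livers 1 and 2 lay only a little below livers 3 and 4. Means were 43.5 ± 4.35 FPKM (SD, n = 4) and 64.1 ± 6.71 FPKM (SD, n = 4), which differed by -0.56 on the log2 scale with a standard error of 0.108 (adjusted p = 0.0134 from limma, exact permutation p = 0.0286). It stayed lower after scaling to reads on all genes (-0.34, adjusted p = 0.0423 from limma) and without METTL3-HKD livers 1 and 3 (-0.62, adjusted p = 0.0469), and did not pass the test without METTL3-HKD livers 1 and 2 (-0.46, adjusted p = 0.110).

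The level of mt-Nd3 is uncertain because the nuclear genome holds a near-identical copy, which is why the first 90 of its 348 bases are shown beside those of the copy. Both are given 5′ to 3′ from GRCm38, and the capital marks their 1 difference over the whole alignment.
mt-Nd3: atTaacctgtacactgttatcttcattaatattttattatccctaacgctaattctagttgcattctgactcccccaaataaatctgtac
Gm28438: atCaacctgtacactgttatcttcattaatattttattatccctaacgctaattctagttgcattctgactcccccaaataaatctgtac
The copy lies on chromosome 1 from 24612775 to 24613119 (minus strand) and matches 344 of its 345 bases, with the substitution T3C (mt-Nd3 first, then the copy) counted from the first base of mt-Nd3. On the same stretch of chromosome 1 lie copies identical over their full length to mt-Co2, mt-Atp6, mt-Co3 and mt-Nd4l, a copy of 63.6% of mt-Nd4 and a copy of 31.3% of mt-Co1. A read that matches both places cannot be assigned to either. The 5 mitochondrial mRNAs with a copy over all of their length had means of 53.8 to 189 FPKM, whereas mt-Nd1, mt-Nd2, mt-Nd4, mt-Nd5, mt-Nd6, mt-Co1 and mt-Cytb had 1560 to 10787 FPKM. mt-Atp8, which shares 43 bases with mt-Atp6, was lower still, at 3.65 to 12.1 FPKM. No copy of it was found, but only annotated pseudogene transcripts were searched. In the mitochondrial genome it lies between mt-Co2 and mt-Atp6. The bases between their chromosome 1 copies (24614651 to 24614885) were not searched, so a copy of mt-Atp8 there is not excluded. When the FPKM of the copy was added, mt-Nd3 was at 46.7, 51.2, 63.3 and 55.2 FPKM against 80.1, 83.2, 66.2 and 68.2 FPKM, and it remained lower (log2 fold change -0.46, adjusted p = 0.0365 from limma).

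The other mitochondrial mRNAs with such copies varied widely between livers. mt-Atp6 was at 80.4, 125, 184 and 243 FPKM in METTL3-HKD livers and 362, 168, 177 and 175 FPKM in METTL3-Flox livers, overlapping (log2 fold change -0.52, adjusted p = 0.365 from limma). mt-Nd4l ranged from 26.8 to 182 FPKM in METTL3-HKD livers and from 34.8 to 95.8 FPKM in METTL3-Flox livers. mt-Co2 (-0.05) and mt-Co3 (-0.07) overlapped fully between the groups.

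Factors that build the complexes and supply their electrons were taken from lists of known genes. Their calls stand beside 6.63% of all genes tested that were lower and 9.05% that were higher. Of 16 assembly factors of complex I, 0 were lower and 1 was higher, Ndufaf4, at 8.16 ± 0.768 FPKM (SD, n = 4) against 6.32 ± 0.548 FPKM (SD, n = 4) (log2 fold change 0.36, adjusted p = 0.0454 from limma). Foxred1 (-0.44, adjusted p = 0.0530 from limma) and Dmac2 (-0.37, adjusted p = 0.0596), which also act in the assembly of complex I, did not pass. For complex II, 0 of 4 passed, among them Sdhaf1 (-0.65, adjusted p = 0.124 from limma), an iron-sulfur assembly factor, Sdhaf4 (-0.29) and Sdhaf2 (0.09). For complex III, 1 of 6 was lower, Uqcc3 (-0.36, adjusted p = 0.0499 from limma), and the Rieske protein translocase Bcs1l did not pass (-0.43, adjusted p = 0.0756), nor did Lyrm7 (-0.33). Of 22 factors for complex IV, 20 were tested and 0 passed, with Coa7 (-0.39, adjusted p = 0.0570 from limma) and Cmc2 (-0.58, adjusted p = 0.0774) nearest, before Coa3 (-0.24). For complex V 0 of 3 passed, with Atpaf2 at -0.09, Atpaf1 at 0.04 and Tmem70 at 0.16. Ndufaf4 kept its call when METTL3-Flox liver 1 was left out and lost it in the other 7 omissions (adjusted p up to 0.111 from limma), and Uqcc3 kept its call without METTL3-HKD liver 2 alone (adjusted p up to 0.114) and lost it after scaling to reads on all genes (-0.15, adjusted p = 0.498). Median log2 fold changes were -0.22, -0.14, -0.16, -0.13 and 0.04 for complexes I to V.

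Electron carriers outside the 5 complexes gave 1 call in 7, where 6.63% of all genes were lower and 9.05% higher. Gpd2, the glycerol-3-phosphate dehydrogenase of the inner membrane that feeds coenzyme Q, was at 4.26, 4.61, 4.34 and 3.11 FPKM in METTL3-HKD livers and 1.67, 3.07, 2.12 and 2.43 FPKM in METTL3-Flox livers, narrowly without overlap (log2 fold change 0.81, adjusted p = 0.0274 from limma). Etfb and Etfdh, which pass electrons from fatty acid oxidation, were at -0.28 and -0.19 without passing. Coenzyme Q synthesis held 2 lower and 1 higher gene among 11, a small list to set beside those shares. Coq8a, a kinase-like protein of this pathway, was at 7.09, 11.2, 12.8 and 9.87 FPKM against 23.1, 21.5, 35.5 and 22.8 FPKM, far from overlapping (log2 fold change -1.32, adjusted p = 0.00740 from limma). Its paralog Coq8b was higher, at 10.5, 7.89, 11.3 and 10.6 FPKM against 6.36, 3.70, 4.70 and 8.44 FPKM, with METTL3-HKD liver 2 below METTL3-Flox liver 4 (0.84, adjusted p = 0.0447 from limma), and Coq9 was lower (-0.36, adjusted p = 0.0429). Coq8a kept its call whichever liver was left out, whereas Coq8b kept it without METTL3-Flox liver 4 alone (adjusted p up to 0.118 from limma), Coq9 without METTL3-HKD liver 3 alone (up to 0.1001) and Gpd2 without METTL3-HKD liver 4 or METTL3-Flox liver 1 or 2 (otherwise up to 0.0792). Coq9 also lost its call after scaling to reads on all genes (-0.14, adjusted p = 0.298 from limma).

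Regulators of mitochondrial gene expression held few calls, in both directions, beside 9.05% of all genes that were higher and 6.63% that were lower. Of 9 regulators of biogenesis, 2 were higher and 0 lower. Pprc1, a coactivator of the PGC-1 family, was at 3.85, 3.59, 2.94 and 2.89 FPKM in METTL3-HKD livers and 2.23, 1.27, 1.40 and 1.45 FPKM in METTL3-Flox livers (log2 fold change 1.04, adjusted p = 0.0104 from limma). Nrf1, whose motif stands in the windows described above, was at 1.43 ± 0.206 FPKM (SD, n = 4) against 0.936 ± 0.0540 FPKM (SD, n = 4) (0.55, adjusted p = 0.0303 from limma), and Gabpb1 did not pass (0.44, adjusted p = 0.0906). Of the 28 factors of mitochondrial DNA expression found in the table, 2 were higher and 1 was lower, with a median of 0.09. Trmt10c, a subunit of the RNase P that cuts mitochondrial transcripts, was at 11.6, 11.1, 7.54 and 8.26 FPKM against 6.05, 4.99, 4.08 and 4.57 FPKM (0.95, adjusted p = 0.0112 from limma). Fastkd2, which acts on the RNA of the mitochondrial ribosome, was higher (0.42, adjusted p = 0.0282 from limma), and the topoisomerase Top1mt was lower (-0.53, adjusted p = 0.0140). Pprc1, Trmt10c and Top1mt kept their calls whichever liver was left out, and Top1mt lost its call after scaling to reads on all genes (-0.31, adjusted p = 0.112 from limma). Nrf1 kept its call without METTL3-HKD liver 4 or METTL3-Flox liver 1 (otherwise adjusted p up to 0.0742 from limma), and Fastkd2 without METTL3-HKD liver 2 or METTL3-Flox liver 1 (otherwise up to 0.0693).

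Neighbouring mitochondrial pathways also held few calls, against 6.63% of all genes that were lower and 9.05% that were higher. Of 14 genes of the TCA cycle, 0 passed the test and the median was -0.08, between Idh2 at -0.27 (adjusted p = 0.0719 from limma) and Fh1 at 0.49 (adjusted p = 0.0778), while Ogdh was at -0.23 (adjusted p = 0.106). Of 83 genes for mitochondrial ribosomal proteins, 81 were tested, 3 were lower and 0 higher, with a median of -0.07. Those 3 were Mrps36 (-0.60, adjusted p = 0.0129 from limma), now counted as a part of the oxoglutarate dehydrogenase complex, Mrpl14 (-0.39, adjusted p = 0.0276) and Mrpl41 (-0.34, adjusted p = 0.0479). Mrps36 kept its call whichever liver was left out, Mrpl14 lost it without METTL3-HKD liver 1 or 4 or METTL3-Flox liver 3 (adjusted p up to 0.0693 from limma), and Mrpl41 lost it in all 8 omissions. After scaling to reads on all genes, neither Mrpl14 (-0.17, adjusted p = 0.243 from limma) nor Mrpl41 (-0.13, adjusted p = 0.319) passed. Whether the subunits differed from these lists was not tested.

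Levels per length spanned a wide range within each complex. Means over the 8 livers lay between 1.21 and 144 FPKM in nuclear complex I, 39.0 and 112 FPKM in II, 51.2 and 151 FPKM in III, 0.154 and 382 FPKM in IV and 3.52 and 259 FPKM in V. The low end partly follows the gene length by which reads were divided, the union of all annotated exons. For Ndufb2, the lowest of complex I, that union is 12.4 times as long as its first-numbered coding transcript, and for Atp5l, Ndufb5, Ndufb7, Cox6c and Atp5j2 it is 6.12 to 11.8 times as long, so their FPKM understate the level of the mRNA.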

How the data were processed

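RNA of 8 mouse livers was sequenced from libraries made with an mRNA-Seq kit. The authors deposited FPKM per gene with gene lengths, and the submitters' processing notes name GRCm38 and mm10, while aligner, counter, annotation and strandedness are not given in the sources used here. FPKM times gene length gave whole reads (within 0.05) for 100% of non-zero values once divided by a unit per library, so the deposited values had been scaled between libraries. The rebuilt reads were 15861245 to 18434488 per liver, with size factors of 1.06 to 1.18 in METTL3-HKD and 0.835 to 0.950 in METTL3-Flox livers. Members and lists were chosen with earlier results of these data known. Genes whose mean reached 0.1 FPKM were compared on log2(FPKM + 0.1) with limma 3.58.1 (mean-variance trend, two-sided, Benjamini-Hochberg over 16645 genes) in R 4.3.3, after a test on simulated data, and fold changes on this scale understate those of low genes. Single genes were compared by exact permutation of FPKM over all 70 arrangements. Mice of both groups came from the same litters per the study's methods, no label gives the litter of a liver, and p-values measure the spread between these livers. Named genes are Mettl3, the mitochondrial members, core subunits, isoform groups, and in each complex and list the 3 with the smallest adjusted p. In each complex, the nuclear member with the highest FPKM is also named. One gene under this rule is not reported here. mt-Rnr1, mt-Rnr2, Ndufs3, Ndufs5, Ndufb2 and other genes outside this rule were named after their values were seen. Alternatives changed 1 choice at a time: pseudocount (1), minimum (1 or none), scaling, trend, weights, voom, gene type, block and each liver left out. Copies were searched among annotated pseudogene transcripts, not the whole genome, with blastn 2.17.0 (at least 98% identity over at least 50% of the transcript).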

Additional observations from a re-analysis of the deposited data

Results flagged for a closer look

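In 14 of 186 groups of 4 livers over the named genes (7.53%), the highest or lowest liver stood far from the other 3 by Dixon's criterion, where chance flags about 1 in 20. METTL3-Flox liver 1 was the high value for Atp5g1 (29.3 FPKM), Cox5b (59.8 FPKM), Cox6a1 (465 FPKM), Uqcrq (193 FPKM), Cox8b (0.195 FPKM), mt-Atp6 (362 FPKM) and mt-Rnr1 (384 FPKM), and the low value for Ogdh (25.1 FPKM). METTL3-Flox liver 2 was high for Sdha (94.9 FPKM) and low for Fastkd2 (2.13 FPKM), and METTL3-Flox liver 3 was high for Coq8a (35.5 FPKM). METTL3-HKD liver 1 was low for Cox6b1 (142 FPKM) and Uqcr11 (114 FPKM), and METTL3-HKD liver 3 was high for Ndufa4l2 (1.57 FPKM).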

How the results depend on the processing

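The count of nuclear members called lower was 1 with no minimum level, with scaling to reads on all genes, with scaling to reads on nuclear genes and without the mean-variance trend, 5 with protein-coding genes only and 0 without METTL3-HKD livers 1 and 3 or livers 1 and 2. When each liver was left out in turn, it ranged from 1 to 4, and the count of nuclear members called higher ranged from 0 to 2 (Cox6a2 and Cox8b without METTL3-HKD liver 4, whose test is not read since they reached the minimum level through METTL3-HKD livers alone). The mitochondrial count was 0 without METTL3-HKD livers 1 and 2. Replicate numbers did not pair the livers (correlations of same-numbered deviations of 0.071, -0.084, -0.013 and -0.034), and with the replicate number as a block the nuclear and the mitochondrial counts were both 0. After scaling to reads on all genes, medians were 0.012, 0.036, 0.092 and 0.033 for nuclear complexes I, II, III and V and 0.028 for all nuclear members, and after scaling to reads on nuclear genes 0.017, 0.040, 0.096, 0.037 and 0.032. All genes then called numbered 353 without METTL3-HKD livers 1 and 2, against 2610. Of 93 named genes tested, 29 uncalled ones changed sign under either read scaling, and 0 called ones did. The 3 omissions and additions chosen after seeing the data were livers 1 and 3, livers 1 and 2, and the chromosome 1 copies. Scaling to reads on all genes ended the calls of Ndufs6, Ndufa1, Uqcc3, Coq9, Mrpl14, Mrpl41 and Top1mt. The causes were not tested. Depth limited Cox4i2, with at most 3 reads in a METTL3-Flox liver.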
